A study of Mus musculus with 9 samples.

Results

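The microRNAs mmu-miR-183-5p, mmu-miR-96-5p and mmu-miR-182-5p, which come from 1 cluster of genes, and the epithelial microRNAs mmu-miR-375-3p, mmu-miR-203-3p and mmu-miR-205-5p were followed in mouse lung (the prefix is dropped from here on). These 6 were picked by name from the 1881 mouse miRNAs of the array. Agilent 1-colour arrays were hybridised with Cy3-labelled lung RNA, each from a different mouse, and 3 such arrays make up each of the 3 groups. Control mice carry no treatment in the labels, model mice carry D-galactose and sodium nitrite with 42 days, a treatment used to imitate ageing, and codonopsis mice carry the plant Codonopsis pilosula at 15 g per kg with 30 days. The protocol text describes the plant as given within an ageing model, but the labels of the codonopsis arrays name neither D-galactose nor sodium nitrite. The model is therefore chemical rather than one of old mice, and strain and age are not given in the sources used here. Male mice gave control 1, codonopsis 1 and codonopsis 2, and female mice gave the remaining 6 arrays.

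MicroRNAs are short RNAs that lower the output of messenger RNAs, and they find these mainly through the seed, bases 2 to 8 from their 5′ end. The genes Mir183, Mir96 and Mir182 lie side by side on 1 strand of 1 chromosome and are known to be transcribed together, with high levels in sensory cells and in other epithelia. Mir375 is best known from pancreatic islets and neuroendocrine cells, Mir203 from stratifying epithelium such as epidermis, and Mir205 from basal and stratified epithelium, including the basal cells of large airways.

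The mature sequences from RefSeq (build GRCm38.p6) are printed 5′ to 3′ with the seed in capitals, to show which members could share targets and how alike the cluster miRNAs are as hybridization targets. RefSeq entries were matched for 5 of the 6 members, and miR-375-3p is named only.
miR-183-5p: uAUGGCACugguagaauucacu
miR-96-5p: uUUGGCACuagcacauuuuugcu
miR-182-5p: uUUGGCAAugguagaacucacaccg
miR-203-3p: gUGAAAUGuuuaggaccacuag
miR-205-5p: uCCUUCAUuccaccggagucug
In this build miR-183-5p lies at chr6:30169711-30169732, miR-96-5p at chr6:30169506-30169528 and miR-182-5p at chr6:30165962-30165986, all on the minus strand and each in the hairpin of its own miRNA gene. The hairpins of Mir183 and Mir96 are 116 bases apart, those of Mir96 and Mir182 3453 bases, and all 3 fit in 3820 bases. From the other genes, miR-203-3p lies at chr12:112130927-112130948 on the plus strand and miR-205-5p at chr1:193507503-193507524 on the minus strand. Bases 2 to 7 were the same in miR-96-5p and miR-182-5p, which part at base 8, and no other array entry with a RefSeq sequence (1608 of 1881) shared these bases with either of them. No array entry with a RefSeq sequence shared bases 2 to 7 with miR-183-5p, although 7 of its first 8 bases were those of miR-96-5p. Over all positions counted from the 5′ end, seed included, miR-183-5p and miR-182-5p had the same base at 18 of 22. For miR-183-5p and miR-96-5p it was 13 of 22, and for miR-96-5p and miR-182-5p 12 of 23.

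Slide 2 carried the 3 controls, and slide 1 carried the 6 arrays of model and codonopsis mice, so a difference from control cannot be told apart from a difference between slides. As many as 484 miRNAs were detected on an array, and control 1 stood apart, with a 75th percentile of signal of 244.54 against 394.17 to 538.24 elsewhere and a median correlation with the other arrays of 0.886 against 0.951 to 0.978. Printed levels are log2 of the background-corrected signal divided by the 75th percentile of the array's signal over the 289 miRNAs detected everywhere. A probe's brightness depends on its sequence, so levels are compared between arrays and never between miRNAs. Another epithelial group, the miR-200 family, known to keep cells epithelial, was read beside the members. All 5 of its listed miRNAs (miR-200a-3p, miR-200b-3p, miR-200c-3p, miR-141-3p and miR-429-3p) were detected on all 9 arrays. Whole lung holds epithelium, so this does not show which cells the members of the part came from. In whole lung RNA, fewer cells of a type and less RNA per cell cannot be told apart.

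Of the 6 members, 5 were detected on all 9 arrays and miR-205-5p on 4. The partner strands miR-183-3p, miR-96-3p, miR-182-3p, miR-375-5p, miR-203-5p and miR-205-3p were detected on no array, and their processed signal ran from −3.52 to 1.43. The detected strand was therefore the 5p strand for the 3 cluster genes and Mir205 and the 3p strand for Mir375 and Mir203. For miR-183-5p the processed signal was 6.92 to 20.2 and for miR-182-5p 7.57 to 17.7. The signal of miR-96-5p was 51.5 to 133, and that of miR-375-3p 26.2 to 58.7. For miR-203-3p it was 14.1 to 47.4.

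The design asks how the model differed from control and how codonopsis differed from the model, and the cluster comes first. In control lungs miR-183-5p stood at −5.14, −4.74 and −4.90 on the log2 scale, in model lungs at −5.02, −4.78 and −4.58, and in codonopsis lungs at −4.68, −5.38 and −5.02 (replicates 1 to 3). The highest array was model 3, the lowest was codonopsis 2, and the 3 groups overlapped. The group levels were −4.93 ± 0.205 (SD, n = 3) in control, −4.79 ± 0.222 in model and −5.03 ± 0.349 in codonopsis lungs.

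For miR-96-5p the control arrays read −2.25, −2.02 and −2.03, the model arrays −2.28, −2.10 and −1.81, and the codonopsis arrays −2.03, −2.72 and −2.32. Again model 3 was highest and codonopsis 2 lowest, and the groups overlapped. The group levels were −2.10 ± 0.130 (SD, n = 3), −2.06 ± 0.236 and −2.36 ± 0.346 in the order control, model and codonopsis. The difference between codonopsis and model was −0.30 (SE 0.209), and it was −0.12 without codonopsis 2, −0.17 without model 3 and −0.46 without codonopsis 1.

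The last of the cluster, miR-182-5p, read −5.01, −5.11 and −5.17 on the control arrays, −5.22, −4.95 and −4.59 on the model arrays and −4.76, −5.38 and −4.89 on the codonopsis arrays. Model 3 and codonopsis 2 were once more the ends of the range, while the control arrays lay close together at −5.10 ± 0.0780 (SD, n = 3). Model lungs were at −4.92 ± 0.319 and codonopsis lungs at −5.01 ± 0.328. In the order of group means, model was highest for all 3 cluster miRNAs. Control came next for miR-183-5p and miR-96-5p and codonopsis next for miR-182-5p, and no neighbours in these orders differed beyond their spread. For miR-183-5p codonopsis minus model was −0.23, and it was −0.0560 without codonopsis 2, −0.12 without model 3 and −0.40 without codonopsis 1.

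Among the other epithelial miRNAs, miR-375-3p stood at −3.23, −3.20 and −3.63 in control, −3.05, −3.88 and −3.39 in model and −3.82, −3.44 and −3.84 in codonopsis lungs. Model 1 was highest and model 2 lowest, so the range of the model group (−3.44 ± 0.415, SD, n = 3) covered all other arrays. Control lungs were at −3.35 ± 0.240 and codonopsis lungs at −3.70 ± 0.229, a difference between these of −0.35 (SE 0.243). This was the largest of the 15 tested differences of the members, and its groups overlapped.

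Levels of miR-203-3p were −4.12, −3.50 and −3.50 in control, −3.38, −3.75 and −3.63 in model and −3.70, −3.86 and −3.79 in codonopsis lungs. Control 1 lay below the other 8 arrays and model 1 above them. The group levels were −3.71 ± 0.356 (SD, n = 3), −3.59 ± 0.188 and −3.78 ± 0.0791 in the same order. Without control 1 the control level moved up, and model minus control went from 0.12 to −0.09.

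**Figure D1:**
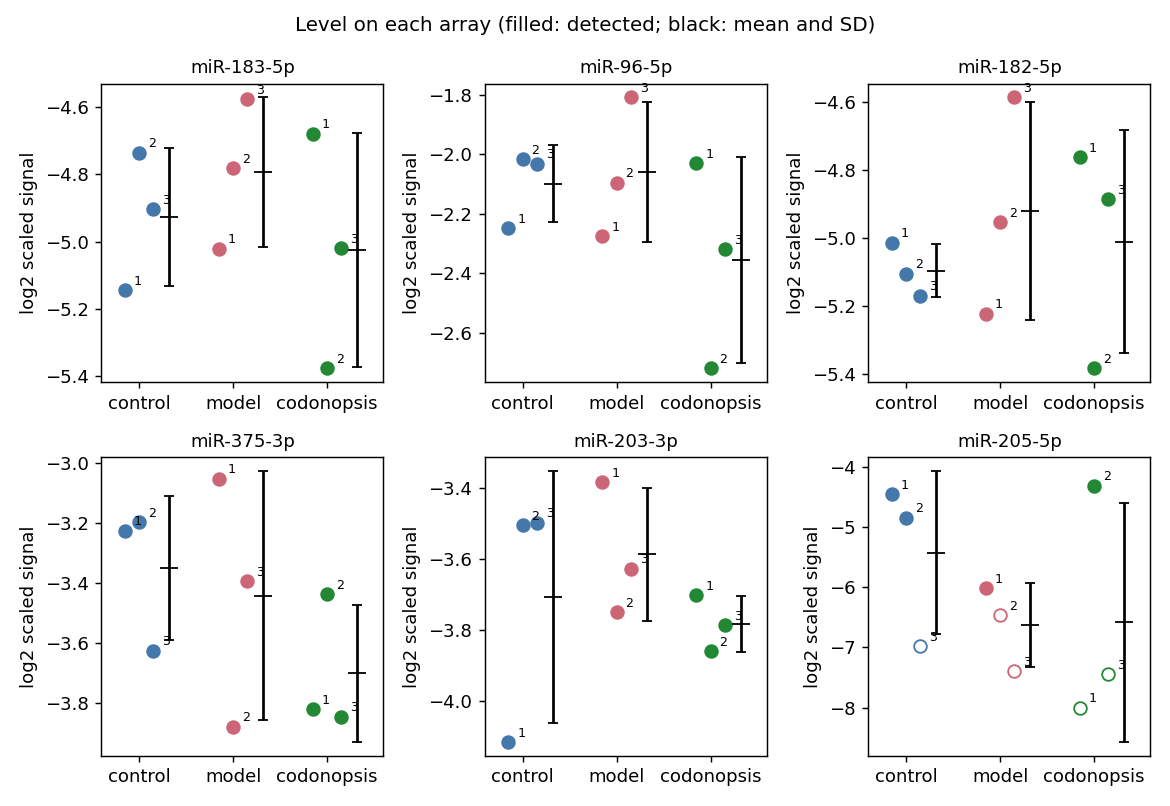
Each panel plots 1 miRNA, with the log2 scaled signal on the vertical axis and the 3 groups on the horizontal axis; points are arrays numbered by replicate, filled where the miRNA was detected, and black bars give the mean and SD of 3 arrays. The groups overlap in every panel, model 3 and codonopsis 2 are the extremes of the 3 cluster miRNAs, and in the codonopsis group miR-205-5p was detected on 1 array, at −4.30, with an undetected array at the floor of −8.

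No member passed in any comparison. The tests were limma's moderated tests in 1 fit of all 9 arrays, adjusted with the Benjamini-Hochberg method over 404 tested miRNAs at a threshold of 0.05. For model against control the fit called 0% of tested miRNAs (47 had an unadjusted p under 0.05), and none of the 5 tested members was called. For codonopsis against model it called 0% (43 with an unadjusted p under 0.05) and for codonopsis against control 0.990%, again with none of the 5 members among them. The smallest adjusted p among the members was 0.542, for miR-96-5p in codonopsis against model (unadjusted p = 0.195 in limma). A moderated F test for any difference among the 3 groups gave adjusted p-values from 0.60 to 0.808 for the 5 members.

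The 15 differences ran from −0.35 to 0.18. Their 95% intervals together covered −0.92 to 0.68, or ratios of 0.530 to 1.61, so the intervals leave room for smaller differences in either direction. In none of the 15 were the 2 groups of arrays apart without overlap. Of all tested miRNAs 23.3% had such groups in model against control (14.4% above and 8.91% below). The share was 37.1% in codonopsis against model (14.9% above and 22.3% below) and 12.6% in codonopsis against control (5.69% above and 6.93% below). All 5 tested members were lower in codonopsis than in model lungs, with a median of −0.23, where 60.4% of all tested miRNAs were lower and their median was −0.11. With no scaling 4 of 5 and with the brightest probe 3 of 5 were lower. All model mice were female. With sex as a covariate 4 of 5 members were lower, and their median of −0.12 was close to the −0.11 of all tested miRNAs. In model against control 4 of 5 were higher, with a median of 0.12 against 0.04 over all tested miRNAs, while with normexp 0 of 5 and with quantile normalization 5 of 5 were higher. These 2 comparisons share the model arrays. In codonopsis against control 4 of 5 were lower, with a median of −0.10 against −0.03, while with quantile normalization 1 of 5 was lower.

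**Figure D2:**
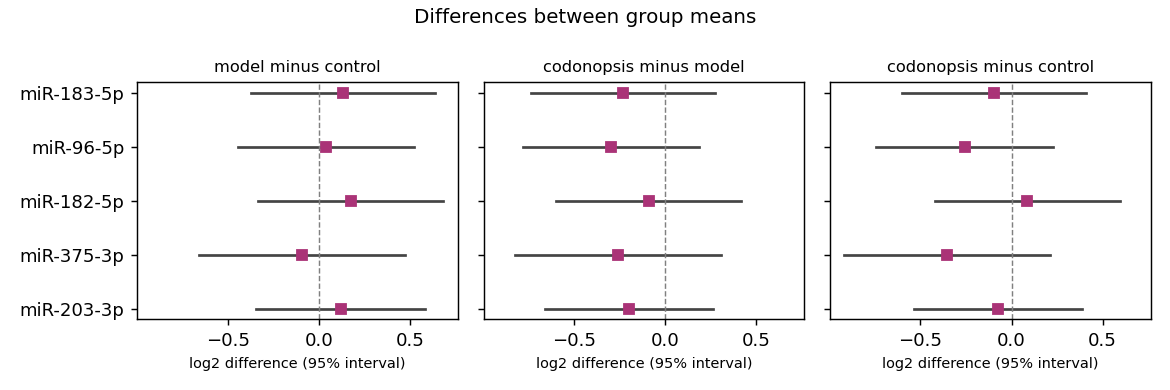
Points are differences of group means in log2 units for the 5 members detected on all arrays, with the 95% interval of the limma fit as a line, in 1 panel per comparison (n = 3 arrays a group). Every interval crosses 0, and the point farthest from 0 is miR-375-3p in codonopsis minus control at −0.35.

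The miR-200 family is the other epithelial group measured here. Its 5 members were higher in model than in control lungs by 0.09 to 0.47, with a median of 0.26. Codonopsis minus model was −0.29 to −0.22 for them, with a median of −0.29. Of all tested miRNAs 220 of 404 were higher in the first comparison (median 0.04) and 60.4% lower in the second (median −0.11). Both comparisons use the same model arrays. With quantile normalization 4 of 5 were higher in the first comparison and 5 of 5 lower in the second, and without control 1 the median of the first was 0.12. The median of the second was −0.10 with quantile normalization, −0.10 with the brightest probe and −0.11 with sex as a covariate. None of them passed. Only miR-200c-3p of the 5 had groups that did not overlap, in model against control and in codonopsis against model. Of all tested miRNAs 23.3% and 37.1% had such groups in these comparisons, so 1 of 5 does not set the family apart. The adjusted p of miR-200c-3p in limma was 0.332 and 0.471. Summed over the 5, the scaled signal was 7.77 to 10.2 on control and 8.42 to 9.37 on codonopsis arrays, and the lowest of the model arrays had 9.41. This sum did not single out codonopsis 2, the lowest array for the 3 cluster miRNAs, where it was 9.13.

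Although no difference of group means passed, miR-183-5p and miR-96-5p varied together from array to array. Each array came from a different mouse, so variation between mice and between arrays cannot be told apart. Over the 9 arrays the levels of miR-183-5p and miR-96-5p correlated with Pearson's r = 0.941 (exact permutation p = 0.000248, adjusted p = 0.00372 over 15 pairs of members) and Spearman's rho = 0.900 (exact permutation p = 0.00203, adjusted p = 0.0304). Each was the best match of the other among the 403 other tested miRNAs. Without the 2 arrays farthest from the median of miR-183-5p (model 3 and codonopsis 2) r was 0.840, on the 6 arrays of slide 1 it was 0.989, and the 3 arrays of slide 2 are too few for a value. For scale, the median r over all 81406 pairs of tested miRNAs was 0.00, and 0.894% of pairs were as high. Both levels of an array share its scaling and its overall brightness. Leaving out 1 array, r was 0.894 to 0.966. With normexp background correction r was 0.569 and with the total signal that Feature Extraction gives for each miRNA 0.772.

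The best match of miR-182-5p was miR-183-5p, with r = 0.758 (exact permutation p = 0.0180, adjusted p = 0.135) and rho = 0.733 (exact permutation p = 0.0311, adjusted p = 0.156). With miR-96-5p, which ranked 4 of 403, r was 0.718 (exact permutation p = 0.0288, adjusted p = 0.144) and rho 0.550 (exact permutation p = 0.133, adjusted p = 0.369). Neither pair passed after adjustment. Without both model 3 and codonopsis 2 the values of r dropped to 0.346 and 0.0572. These arrays were picked as the farthest from the medians of miR-183-5p and miR-96-5p. Leaving them out narrows the range, which by itself can lower r, so the drop cannot tell how far the relations rest on them. Leaving out 1 array, r was 0.611 to 0.836 and 0.528 to 0.809. On slide 1 the values of r were 0.911 and 0.901. With normexp they were 0.996 and 0.517, against 0.569 for miR-183-5p with miR-96-5p. With quantile normalization they were 0.977 and 0.960, against 0.959 for that pair. That pair stayed highest with the total signal (0.616 and 0.748 against 0.772) and no scaling (0.940 and 0.901 against 0.984). It also did in the deposited log2 table (0.9053 and 0.9435 against 0.9441). Which cluster pair had the highest r thus depended on the processing.

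A difference between cluster miRNAs within an array is not moved by dividing that array by 1 factor. Across the 9 arrays miR-183-5p minus miR-96-5p kept within a span of 0.25 on the log2 scale, although the level of miR-183-5p spanned 0.80 and that of miR-96-5p 0.91. This span was 0.722 with the total signal and 1.27 in the deposited log2 table. The span was wider for miR-96-5p minus miR-182-5p, at 0.57. This difference was 2.77, 3.09 and 3.14 on control, 2.95, 2.86 and 2.78 on model and 2.73, 2.66 and 2.57 on codonopsis arrays, so that the codonopsis arrays lay below the other 6. It was singled out after its values were seen and was not tested. With the brighter probe of each miRNA alone the codonopsis arrays (2.05 to 2.25) overlapped the controls (2.12 to 2.47).

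Correlations between the cluster and the other members were lower, and none passed. The correlation of miR-375-3p with miR-183-5p was r = −0.23, with miR-96-5p r = −0.09 and with miR-182-5p r = −0.38. Its adjusted exact permutation p-values in these pairs were 0.697, 0.830 and 0.477. For miR-203-3p the 3 values of r were 0.445, 0.391 and −0.09, and none passed (adjusted exact permutation p of 0.433, 0.477 and 0.830). Of all 15 pairs of members only miR-183-5p with miR-96-5p passed.

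Other miRNAs whose levels followed the members were named by a rule, the 3 highest correlations among tested miRNAs over the 9 arrays, and are given as descriptions. For miR-183-5p they were miR-34a-5p, a p53-induced miRNA, at r = 0.926, miR-181c-5p at 0.885 and miR-29c-5p at 0.848. For miR-96-5p they were miR-23a-3p at 0.884, miR-7a-1-3p at 0.867 and miR-29c-5p at 0.864. For miR-182-5p they were miR-34a-5p at 0.746, miR-219a-5p at 0.726 and miR-99b-5p at 0.712. Leaving out 1 array, r of the cluster miRNAs with these 9 matches went as low as 0.533, for miR-182-5p with miR-219a-5p without model 3.

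The miRNAs most like miR-375-3p were miR-34c-5p at r = 0.828 and miR-34b-5p at r = 0.817, both known from multiciliated airway cells, followed by miR-125a-3p at 0.812. Levels of miR-34c-5p were 0.73, 0.64 and 0.23 on control, 0.86, −0.03 and 0.76 on model and −0.85, 0.67 and 0.06 on codonopsis arrays. In both miRNAs model 1 was highest, and model 2 lay below model 1 and model 3, while codonopsis 2 stood above codonopsis 1 and codonopsis 3. They differed most on codonopsis 1, where miR-34c-5p was at its lowest and miR-375-3p was close to its levels on model 2 and codonopsis 3. Without that array r was 0.940, and leaving out any 1 array it stayed at 0.808 or above. Of 6 listed markers of multiciliated cells 5 were detected on all arrays and miR-449c-5p on none. Their summed scaled signal was 3.67 to 4.89 on control, 3.05 to 6.15 on model and 1.73 to 4.99 on codonopsis arrays, and its part in the levels of miR-375-3p was not tested.

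**Figure D3:**
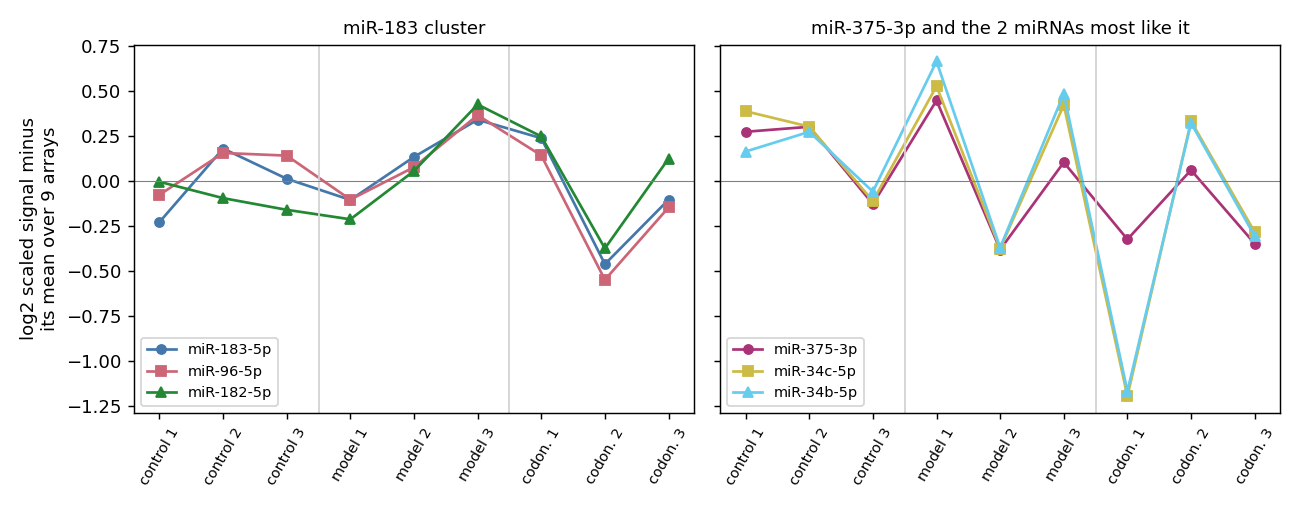
The vertical axis is the log2 scaled signal of each miRNA minus its mean over the 9 arrays, and the horizontal axis lists the arrays by group; lines join points of 1 miRNA only to guide the eye. The left panel shows miR-183-5p, miR-96-5p and miR-182-5p with a common high on model 3 and a common low on codonopsis 2, and the right panel shows miR-375-3p beside miR-34c-5p (r = 0.828) and miR-34b-5p (r = 0.817).

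For miR-203-3p the closest were miR-532-3p at r = 0.936, miR-15a-5p at 0.928 and miR-26b-5p at 0.906. Control 1 was the array that raised these values most, and without it r was 0.864, 0.845 and 0.809.

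The sixth member, miR-205-5p, was near the limit of detection, and each group held arrays that detected it and arrays that did not. Its processed signal was 11.2, 18.8 and 3.46 on the control arrays, 6.34, 4.77 and 2.34 on the model arrays and 1.39, 22.1 and 2.30 on the codonopsis arrays. It was detected on control 1, control 2, model 1 and codonopsis 2 and not on the other 5. On the log2 scale it reached −4.30 on codonopsis 2, −4.45 on control 1 and −4.84 on control 2, while codonopsis 1, where it was not detected, was set to the floor of −8. The log2 levels of undetected arrays are not above background, so no range is given for this miRNA. The ranges of the other 5 members over the 9 arrays were 0.74 to 0.91, where the median over all tested miRNAs was 1.06.

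Both probes of miR-205-5p gave the same picture. The brighter probe read 27.9 ± 10.4 (SD over 15 spots) on codonopsis 2 and 24.2 ± 5.66 on control 2, against 2.61 ± 2.47 on codonopsis 1 and 2.28 ± 2.28 on codonopsis 3. The dimmer probe read 16.3 ± 4.58 on codonopsis 2 and 0.172 ± 2.32 on codonopsis 1 (15 spots each). Spots on 1 array are technical repeats, and their SD says nothing of the spread between mice. The probes correlated over the 9 arrays at r = 0.942.

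**Figure D4:**
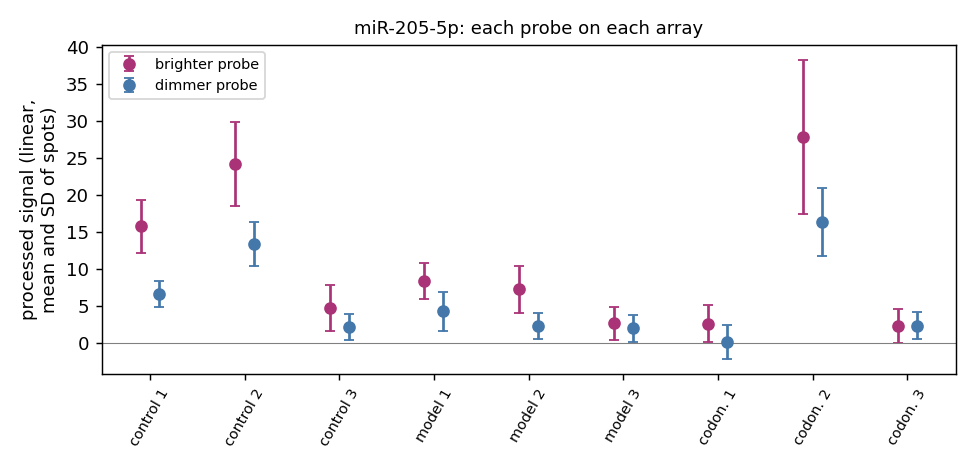
Processed signal of the 2 probes of miR-205-5p on a linear axis for each of the 9 arrays, with points for the mean and bars for the SD of 14 or 15 spots. Codonopsis 2, control 2 and control 1 stand above the other arrays for both probes, in 2 different groups.

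Since no group detected miR-205-5p on all its arrays, it did not enter the 404 tested miRNAs. When all miRNAs detected on at least 1 array were fitted, its difference was −1.21 (SE 1.08) for model minus control, 0.04 (SE 1.08) for codonopsis minus model and −1.16 (SE 1.08) for codonopsis minus control. The adjusted p-values in limma were 0.552, 1 and 0.657. With the floor at log2 −6 the 3 differences were −0.90, 0.57 and −0.34. Leaving out 1 array, they ran from −1.98 to −0.72, from −1.10 (without codonopsis 2) to 0.75 (without codonopsis 1) and from −2.30 to −0.45. Its correlation with miR-203-3p, the other member known from stratified epithelium, was r = −0.34 (adjusted exact permutation p = 0.517). These correlations include the undetected arrays. With the cluster miRNAs r was negative over the 9 arrays, from r = −0.69 to −0.56, and did not pass (adjusted exact permutation p from 0.151 to 0.238). On the 6 arrays of slide 1 it was −0.90 to −0.80. Of these arrays only model 1 and codonopsis 2 detected miR-205-5p. The values of slide 1 therefore rest mostly on levels not above background, and no relation is read from them.

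Markers of other tissue were uneven over the same arrays. The 6 listed markers of heart and striated muscle, of which 3 were detected on all arrays, summed to a scaled signal of 8.96 on codonopsis 2, the array with the most miR-205-5p, and to 0.630 on codonopsis 1 and 0.527 on codonopsis 3, where miR-205-5p was lowest. Of the other arrays that detected it, model 1 had a sum of 5.22 and control 1 of 4.29, each the highest of its group, and control 2 had 2.63, the lowest of the controls. Their part in the level of miR-205-5p was not tested. Erythroid markers were also highest on codonopsis 2, at 49.0 against 24.4 to 40.0 elsewhere. Among 5 markers of other organs 4 (miR-124-3p, miR-9-5p, miR-216a-5p and miR-217-5p) were detected on no array. The remaining one, miR-122-5p of liver, was detected on 3 arrays, and its scaled signal ran from 0.0041 on control 2 to 0.0428 on control 1.

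Each member was read by 2 probes, which allows a second look at the differences. In miR-96-5p the probes correlated at r = 0.940 over the 9 arrays and in miR-375-3p at r = 0.969. For miR-182-5p r was 0.865 and for miR-203-3p 0.857, and for miR-183-5p it was lowest, at 0.646. The dimmer probe of miR-182-5p read only 1.26 to 5.11, with a median coefficient of variation of 73.3% among its spots, against 15.8% for the brighter one. In codonopsis minus control the dimmer probe of miR-182-5p gave 0.54 and the brighter one 0.03, so the value of this miRNA rests on dim spots more than that of miR-96-5p (−0.34 and −0.20).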

How the data were processed

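The deposited scanner files hold linear fluorescence intensity from Agilent Feature Extraction, version 11.5.1.1 per the file headers and 10.10 per the submitters' processing notes, corrected for background and spatial trend within the array and not scaled between arrays. The series' own table, as deposited, gives log2 values, which appear from the values to be quantile-normalised, and was an alternative only.

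Spots flagged as outliers (3.05%) were left out, and the remaining spots were averaged for each probe, then the 2 probes of a member. To scale an array, its 75th percentile over the 289 miRNAs detected everywhere was divided out, with a floor of log2 −8. Tested were 404 miRNAs, those that some group detected on each of its 3 arrays; they were fitted in limma (version 3.58.1, R 4.3.3) with group as the factor, two-sided, with Benjamini-Hochberg adjustment over all of them. The fit was tested on simulated data. Exact permutation tests over all orders of the 9 arrays, two-sided, were used for correlations. Named were the 6 members, their partner strands, the miR-200 family, entries sharing seed bases and the 3 best-correlated miRNAs of each member detected everywhere. The strands miR-203b-5p and miR-203b-3p were listed too but are not on the array, so they have no values. Normexp was run on pixel medians with an offset of 50, not on pixel means as planned.

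Alternatives covered scaling, background, signal, probes, floor, filter, sex, the groups fitted and each array left out. Members and lists were chosen with earlier results of these data known. P-values rest on the spread from mouse to mouse, and with 3 arrays a group precision is limited by their number.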

Additional observations from a re-analysis of the deposited data

How the results depend on the processing

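None of the 5 tested members passed under an alternative with a test (315 values, smallest adjusted p in limma 0.217), and 30 single-probe values had no test. Of these 345 values 307 had the direction reported and 38 the opposite sign, so the signs are not settled. Some of the 307 could not differ from the main value. They come from the floor at log2 −6, both wider filters, fitting only the groups compared, and leaving out an array of the group not compared. For miR-205-5p, codonopsis minus model was 0.04 and ran from −0.46 with the percentile over all miRNAs to 0.77 with the total signal. For model minus control, normexp gave −0.0336 for miR-183-5p, −0.0018 for miR-96-5p, −0.0266 for miR-182-5p and −0.0195 for miR-203-3p, and miR-375-3p was 0.48 with the percentile over all miRNAs, 0.40 with quantile normalization and 0.42 with the deposited log2 table. There miR-96-5p was −0.0071 with sex as a covariate and −0.0718 with its dimmer probe. For codonopsis minus model, miR-182-5p was 0.00997 with no scaling, 0.0752 with the brightest probe and 0.0296 with its dimmer probe, and miR-203-3p 0.0214 with the brightest probe and 0.0073 with sex. For codonopsis minus control, in the order percentile over all miRNAs, quantile, no scaling and deposited table, miR-183-5p was 0.11, 0.24, 0.0884 and 0.0729 and miR-203-3p 0.13, 0.28, 0.11 and 0.55, with 0.0778 for miR-203-3p from the total signal, 0.0755 from the brightest probe and 0.0254 with sex. In that comparison miR-96-5p was 0.0624 with quantile normalization and 0.0554 with the deposited table, and miR-182-5p −0.10 with normexp. The median of all tested miRNAs itself moved, for model minus control from 0.04 to 0.62 with the percentile over all miRNAs, where the members' median was 0.69. Leaving out 1 array, model minus control ran from −0.0863 to 0.15 for miR-96-5p, −0.29 to 0.13 for miR-375-3p and −0.0856 to 0.22 for miR-203-3p. Codonopsis minus model ran from −0.24 to 0.10 for miR-182-5p, and codonopsis minus control from −0.27 to 0.0785 for miR-183-5p, −0.0384 to 0.27 for miR-182-5p and −0.28 to 0.0282 for miR-203-3p.

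Over all miRNAs, codonopsis against model had 0 calls, but 2 with the total signal, 1 with the deposited table, 17 with only these groups fitted and 0 to 29 with 1 array left out (29 without control 1, 17 without codonopsis 3 and 4 without codonopsis 2). Codonopsis against control had 4, but 0 with the percentile over all miRNAs, quantile normalization, no scaling, normexp and both wider filters, 9 with the floor at log2 −6 and 0 to 46 with 1 array left out (46 without control 1, 28 without codonopsis 3, 1 without model 1 and 0 without control 2, model 3 or codonopsis 1). None of these calls was a member. The causes were not tested. No paired analysis was possible because the numbers in the titles repeat within a group. The correlation alternatives and single-probe values were chosen after seeing the data. Dim signal limits miR-183-5p, miR-182-5p and miR-205-5p most.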
